A study of Mus musculus with 6 samples.

Results

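The ends of mouse autosomes that lie next to the centromeres were followed as 949 windows of 100 kb. These were the non-overlapping windows from just past 3 Mb up to 8 Mb of chromosomes 1 to 19 in build mm10, the first 5 Mb that the assembly spells out on each chromosome. The first such window of chromosome 9, which ends at 3100000 and is dense in satellite repeats, was left out. The 949 windows were chosen by position alone, out of 26350 windows of 100 kb on chromosomes 1 to 19 and X. DNA double-strand break ends were mapped in them by BLISS, an assay that joins adaptors to free DNA ends inside fixed nuclei, copies the joined ends by in vitro transcription and sequences them. The 6 libraries came from sorted forebrain neurons of CK-p25 mice. In these mice, withdrawal of doxycycline switches on p25, an activator of the kinase Cdk5, from a promoter active in forebrain excitatory neurons. All 6 libraries carry the same genotype label and the same label of 2 weeks of induction. By their titles they form 3 groups of 2 libraries: Con, Step1 and Step2. What distinguishes the groups, and whether replicates come from separate animals, is not in the labels; the p-values therefore cover only library-to-library spread, possibly technical. Break ends carry no expression, so the neuronal label could not be checked against marker genes.

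Mouse chromosomes carry the centromere at one end. The centromere itself consists of long arrays of minor and major satellite DNA, which the assembly replaces by a gap, and the sequence next to it is rich in segmental duplications and recently copied gene families. Pericentromeric DNA is packed as constitutive heterochromatin, and in neurons it gathers in chromocentres. Short reads from copied sequence can be assigned to one place only where the copies differ, so what the assembly spells out and what a read can identify are not the same length. For this reason the density of ends was given per sequenced base and also per once-only word, a stretch of 48 bases, close to the read length, that occurs once in the genome on either strand.

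Every read counted once, at the 5′ end, which marks the break end. Libraries held from 1480461 to 2403238 reads, and the windows held from 50716 to 81488 reads each. Of all windows, 3 had no sequenced base and 934 were at least 90% sequenced. Median read length was 49 bases in both Con libraries, 48 in Step1 and 47 in Step2. It was thus the same within each group and differed between groups, so group differences cannot be told apart from it. Its part in them was not tested. Con replicate 2 had 1.37 reads per position in these windows, against 1.14 to 1.24 in the other libraries. Windows of 10 kb holding over 20 times the median of 45 reads were called piled-up and left out of shares, densities and library sizes. There were 26 of them, and 10 lay in the centromere-near windows, where they held 4.00% to 4.36% of the reads. Levels are given as RPM, reads-per-million of the reads on chromosomes 1 to 19 and X outside piled-up windows.

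The results on single windows turn on a few positions, and the reference sequence there is shown first because the reads at these positions make up much of their windows. Each line gives the 24 bases before the end in lower case and the first 48 bases read from it in capitals, in the direction of reading (chr3, chr6 minus strand; chr12, chr19 plus strand).
chr3:5860660: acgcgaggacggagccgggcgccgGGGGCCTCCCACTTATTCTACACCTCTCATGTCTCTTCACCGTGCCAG
chr6:3201542: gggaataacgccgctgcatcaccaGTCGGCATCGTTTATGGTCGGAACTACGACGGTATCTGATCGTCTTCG
chr6:3201505: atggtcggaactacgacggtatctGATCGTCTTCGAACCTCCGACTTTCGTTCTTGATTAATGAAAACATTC
chr12:3110002: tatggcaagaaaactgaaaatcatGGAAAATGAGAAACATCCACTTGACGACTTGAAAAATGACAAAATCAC
chr19:5800249: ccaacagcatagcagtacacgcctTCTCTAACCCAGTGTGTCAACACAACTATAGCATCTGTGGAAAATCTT
Both chromosome 6 stretches lie close together and match the reverse strand of chr17:39847369-39847453 in the reference. There RefSeq annotates Rn18s-rs5, a sequence related to 18S ribosomal RNA on the plus strand, with 46 of 48 and 47 of 48 bases equal. The chromosome 12 stretch had 429 other places in the genome with at least 40 of 48 bases equal (ungapped, and sharing 12 bases in a row), among them copies in the left-out satellite-dense window of chromosome 9. The chromosome 3 stretch had 5 such places, the closest with 47 of 48. It was compared with the reference assembly only, so likeness to ribosomal RNA units that the reference lacks was not tested. For the chromosome 19 stretch, inside the noncoding RNA gene Malat1, none was found.

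Centromere-near windows held a steady share of the break ends in all libraries. Of the autosomal reads outside piled-up windows, 3.67% and 3.72% lay there in Con, against 3.63% and 3.66% in Step1 and 3.67% and 3.65% in Step2. The 95% Wilson intervals, which cover counting error only, reached 0.0250 to 0.0318 points to each side. Con replicate 2 was highest and Step1 replicate 1 lowest, and their intervals did not overlap. Group means were 3.70% ± 0.0311 (SD, n = 2) in Con, 3.65% ± 0.0178 in Step1 and 3.66% ± 0.0174 in Step2. The difference was -0.0499 points for Step1 against Con, -0.0376 for Step2 against Con and 0.0123 for Step2 against Step1 (exact two-sided permutation p = 0.33, 0.33 and 0.67). With 2 libraries against 2 this test cannot go below 0.33.

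Counting all reads, the windows were thinner in break ends than the rest of the autosomes per sequenced base. Per once-only word they were slightly denser. They take up 3.93% of the sequenced autosomal bases and 3.58% of the once-only words. Density per sequenced base relative to other autosomal windows was 0.933 and 0.945 in Con, against 0.923 and 0.929 in Step1 and 0.933 and 0.926 in Step2, below 1 in 6 of 6 libraries (mean 0.932 ± 0.00773, SD; exact sign-flip permutation p = 0.0312, two-sided, the smallest that 6 libraries can give). Per once-only word the same reads gave 1.03 and 1.04 in Con, against 1.02 and 1.02 in Step1 and 1.03 and 1.02 in Step2, above 1 in 6 of 6 libraries (mean 1.03 ± 0.00851; exact p = 0.0312). The direction therefore turned with the denominator, and the once-only one was added after the data were seen. A change of denominator moved the log2 ratio of every library by the same amount, with an SD of 0.0119 either way. Both p-values thus measure only how alike the libraries were and cannot decide between the directions. Chromosome 14 carried much of the gap per sequenced base: without it the mean was 0.976 ± 0.0077, still below 1 in 6 of 6 libraries, and per once-only word it stayed at 1.03. Once-only words made up 81.2% of the words in centromere-near windows and 89.4% elsewhere on the autosomes. GC content differed little, at 41.7% against 41.9%, while repeat-masked bases made up 39.8% against 33.2%. The share of reads with a mapping quality under 30 was 4.84% to 6.07% in these windows and 3.91% to 5.23% elsewhere. Counting 1 read per position gave 0.918 to 0.943 per sequenced base, and reads of mapping quality 30 or more gave 0.916 to 0.939. Per once-only word these settings gave 1.011 to 1.038 and 1.008 to 1.033, so the excess was smaller at that quality. With mapping quality 42 the mean log2 ratio per sequenced base was -0.22. Per once-only word that setting was not run, so the excess is not shown for it.

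The opposite chromosome ends were counted for comparison. The last 950 full windows of 100 kb before the far ends held once-only words at 90.6% and GC at 43.8%. Their density relative to other autosomal windows ran from 0.973 to 0.988 per sequenced base and from 0.955 to 0.970 per once-only word. Per once-only word the subtelomeric windows lay below the centromere-near ones by 0.09 on the log2 scale in the mean (-0.0929 ± 0.00583, SD, n = 6; lower in 6 of 6 libraries; exact sign-flip p = 0.0312), and per sequenced base they lay above them (0.0662 ± 0.00583; higher in 6 of 6; exact p = 0.0312). Which of the chromosome ends was denser thus also depended on the denominator, and these p-values likewise cannot decide it.

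Along the first 5 Mb, density per sequenced base was lowest right at the assembled start. Per sequenced base, density relative to other autosomal windows was 0.607 ± 0.0363 (SD, n = 6; 0.571 to 0.666) in the first 100 kb and 0.729 ± 0.0330 (0.675 to 0.761) in the next 100 kb. It reached 0.957 ± 0.0343 in the 100 kb after that. Of the 50 steps of 100 kb, 48 had a mean below 1 and 31 were below 1 in all 6 libraries. Once-only words made up 40.9% of the first step, 61.2% of the second and 74.7% of the third. Over the 50 steps, mean density per sequenced base and the percentage of once-only words correlated with Spearman rho = 0.54, a description over steps that share the same libraries. Per once-only word the first step rose to 1.33 ± 0.0793 and 15 of the 50 steps had a mean below 1.

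The excess of the first step per once-only word lay mainly on a pair of chromosomes. There were 18 first windows, of which 16 had sequenced bases, and their density per sequenced base ran from 0.0398 to 2.69 with a median of 0.426. In 12 of the 16 it was below 1. The first window of chromosome 4 held 609 reads, 2.69 times the density elsewhere. Only 44.7% of its reads had a mapping quality of 30 or more, against a median of 90.1% over the first windows. The first window of chromosome 18 followed with 606 reads, of which 70.1% passed that quality. Without chromosome 4 the first step stood at 1.19 ± 0.0574 per once-only word, and without chromosomes 4 and 18 at 1.05 ± 0.0575. Reads of mapping quality 30 or more gave 1.11 ± 0.0867 with all chromosomes. Of the first windows, 14 were tested and 0 were called in any comparison, beside 0.0158% of all windows for Step1 against Con, 0.0906% for Step2 against Con and 0.0433% for Step2 against Step1.

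**Figure D1:**
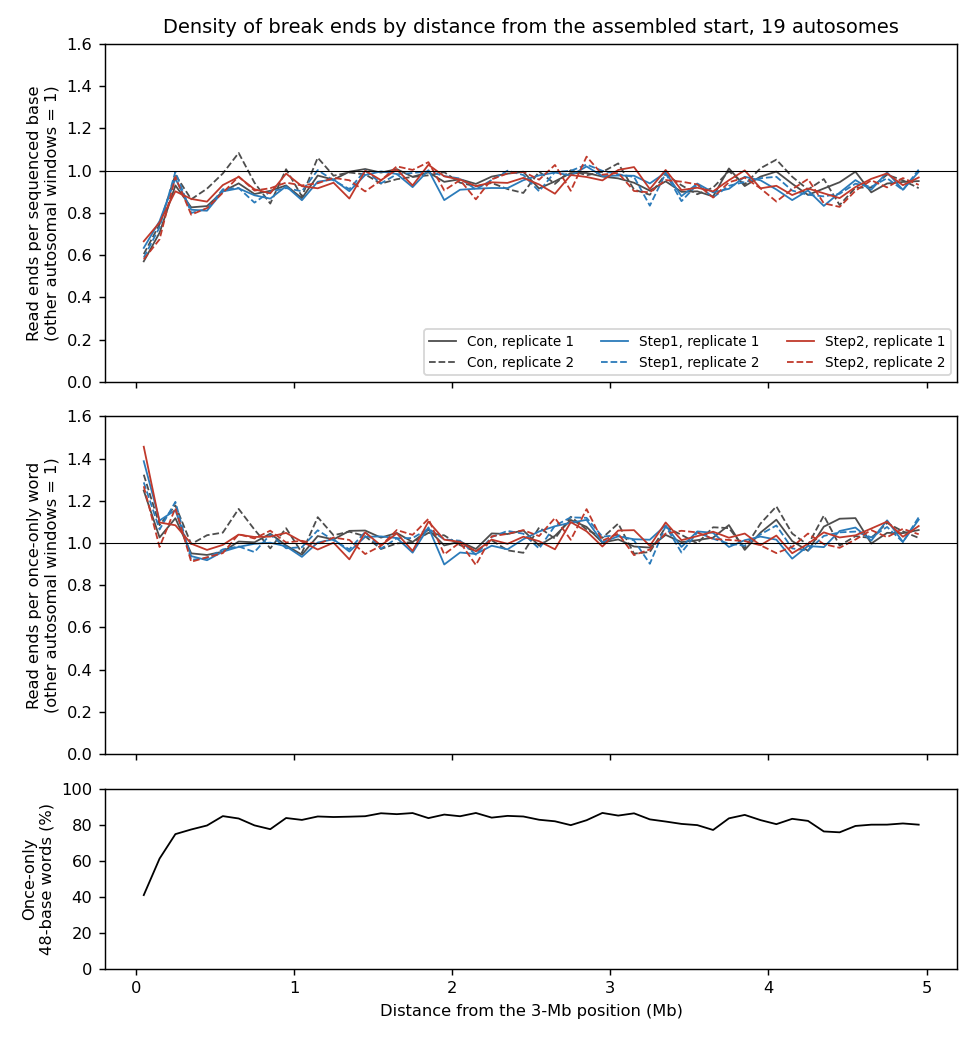
Density of break ends in 100-kb steps over the first 5 Mb of 19 autosomes, per sequenced base (top) and per once-only 48-base word (middle), with other autosomal windows set to 1, and the percentage of once-only words (bottom); each line is 1 library. The first step lies between 0.571 and 0.666 per sequenced base and between 1.25 and 1.46 per once-only word, and libraries of different groups run together along the rest.

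Megabase by megabase, density per sequenced base was 0.866 ± 0.0225 from 3 to 4 Mb, then 0.961 ± 0.0118, 0.961 ± 0.0106, 0.941 ± 0.0103, and 0.927 ± 0.0134 from 7 to 8 Mb. The first Mb was below the fifth in 6 of 6 libraries, with a log2 ratio of -0.0982 ± 0.0324 (exact sign-flip p = 0.0312). Per once-only word the ratio was -0.0107 ± 0.0324 (exact p = 0.44), with 3 libraries on each side of 0. Keeping the piled-up windows turned the ratio per sequenced base to 0.18, since 9 of the 10 piled-up windows lie in the first Mb. The log2 ratio of the first to the fifth Mb was -0.144 and -0.0570 in Con, against -0.102 and -0.125 in Step1 and -0.0742 and -0.0862 in Step2. The Con values enclose those of the other groups. Differences between groups were -0.0130 for Step1 against Con, 0.0205 for Step2 against Con and 0.0334 for Step2 against Step1 (exact permutation p = 1, 1 and 0.33).

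Mean density per sequenced base ran from 0.135 to 1.07 over the chromosomes, and from 0.926 to 0.939 over the groups. Per sequenced base, 7 of 19 chromosomes were below 1 in all 6 libraries and 2 were above 1 in all 6, chromosomes 2 and 3. Chromosome 14 stood lowest at 0.135 ± 0.0137 (0.121 to 0.155), followed by chromosome 7 at 0.780 ± 0.0453 and chromosome 17 at 0.847 ± 0.0286. Chromosome 3 stood highest at 1.07 ± 0.0136. Once-only words made up 13.9% of the first 5 Mb of chromosome 14, 65.5% on chromosome 7, 80.1% on chromosome 17 and 83.1% on chromosome 3. Per once-only word the spread shrank: chromosome 7 stood at 1.06 ± 0.0618, chromosome 17 at 0.948 ± 0.0320 and chromosome 14 at 0.869 ± 0.0882. Chromosome 3 kept the highest mean at 1.16 ± 0.0146. On that scale 9 chromosomes were above 1 in all 6 libraries and 2 were below 1 in all 6. Set against the rest of their own chromosome, 10 were above and 2 below in all 6. Over the 19 chromosomes, density per once-only word and GC content had Spearman rho = -0.68, and density per sequenced base had -0.38. These are descriptions over chromosomes counted in the same libraries.

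**Figure D2:**
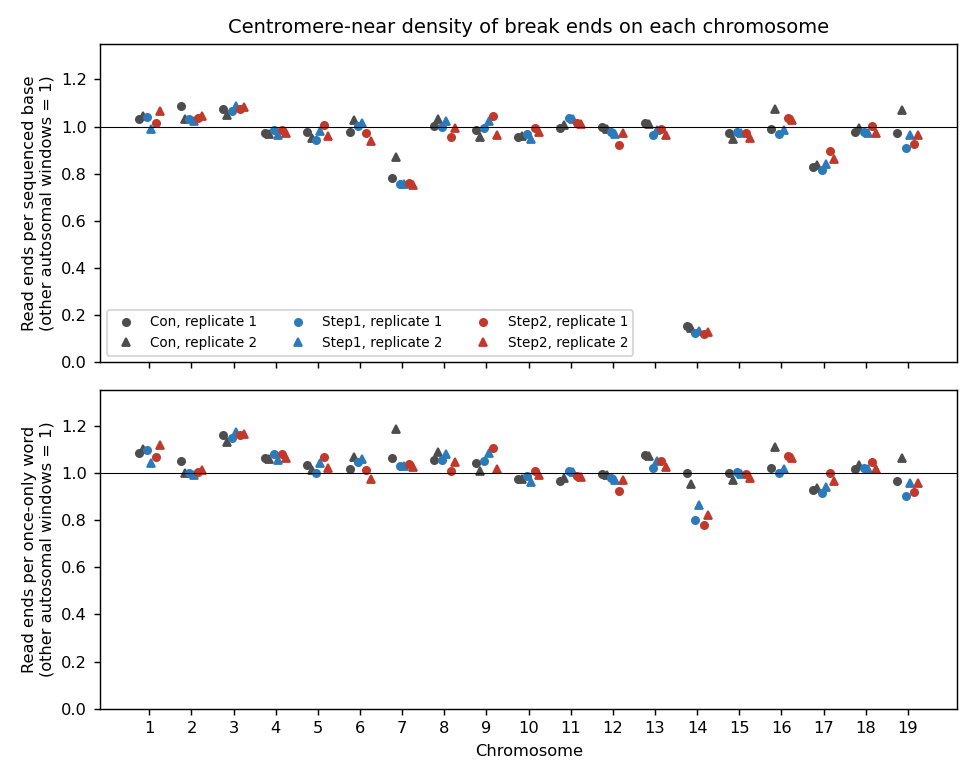
Density of break ends in the centromere-near windows of each autosome, per sequenced base (top) and per once-only word (bottom), with other autosomal windows set to 1; circles are replicate 1 and triangles replicate 2. Chromosome 14 lies between 0.121 and 0.155 per sequenced base and between 0.780 and 0.999 per once-only word, where both Con libraries are above the other 4.

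The start of chromosome 14 was nearly empty of assigned ends. Up to 7700000 its first 47 windows held 1800 reads over the 6 libraries, 11 windows held under 10 reads and 3 held none. The remaining 3 windows, up to 8000000, held 1272. Once-only words made up 0.129% to 32.8% in the 47 windows and 81.6% to 98.5% in the 3. The annotation lists 178 genes in that stretch, and each of its 99 protein-coding genes is named only by a model number; 68 are pseudogenes. The 5 centromere-near windows with the lowest density all lay there, starting at 3400001, 3500001, 3700001, 5600001 and 5700001. Each held 0 or 1 read in all 6 libraries together, and their once-only words did not exceed 0.685%. RPM in the 47 windows were 181 and 168 in Con, against 137 and 159 in Step1 and 139 and 149 in Step2. In the 3 windows beyond, they were 123 and 122 in Con, against 107 and 104 in Step1 and 98.7 and 102 in Step2. Both Con libraries were above the other 4 in both stretches.

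**Figure D3:**
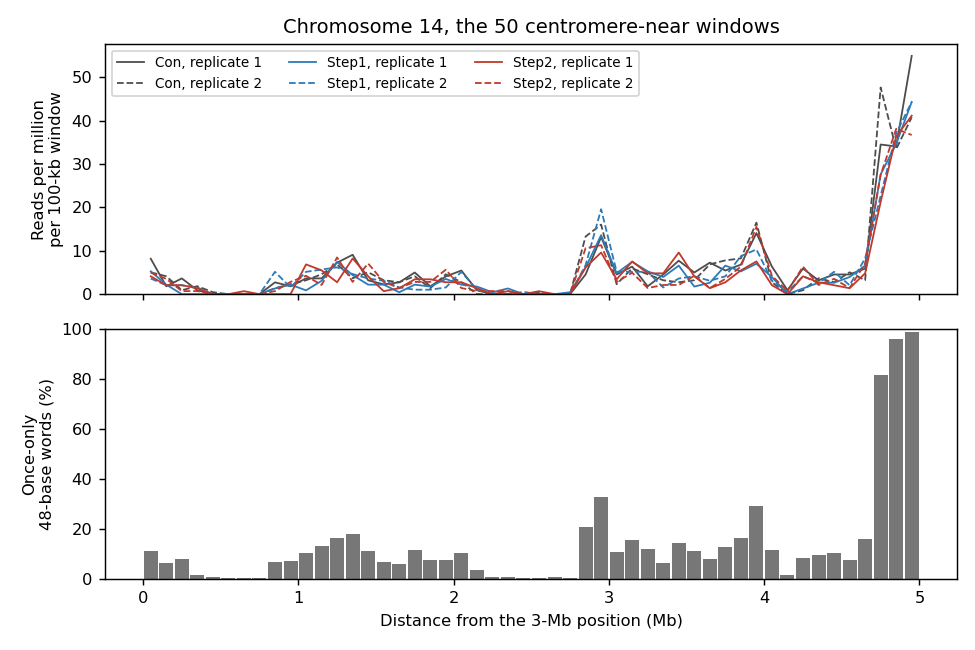
RPM in each of the 50 centromere-near windows of chromosome 14, 1 line per library (top), and the percentage of once-only 48-base words in the same windows (bottom). In the last 3 windows, where the once-only percentage is 81.6% or more, the libraries lie between 21.3 and 54.9 RPM, and in the 47 windows before them no library exceeds 19.6 RPM.

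The level of single windows was otherwise even. Over the 934 windows that were at least 90% sequenced, RPM had a median of 38.7, and the middle 90% ran from 5.79 to 47.6. Other autosomal windows had a median of 39.9 and a middle 90% from 31.1 to 47.7. Without chromosome 14 the lower bound of the centromere-near range was 27.7. Among windows with at least 90% once-only words, the medians were 41.0 over 401 centromere-near windows and 40.6 over 14739 others. Windows with under 50% once-only words made up 9.10% here and 2.08% elsewhere. Across the 934 windows, reads and once-only words had Spearman rho = 0.52, again with no test, since all windows share the libraries.

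Among windows that were at least 90% sequenced, the 5 densest had mean RPM from 71.4 to 971 over the 6 libraries. Single libraries of the lowest pair lay below that range. They reached down to 39.8 in Con replicate 2 on chromosome 3 and 46.6 in Step2 replicate 2 at Stip1, inside the middle 90% of windows. The densest was chr11:3100001-3200000, with 965 and 913 RPM in Con, against 980 and 949 in Step1 and 1045 and 977 in Step2. It covers Sfi1, which encodes a centrosome protein, and the 3′ end of Drg1, a GTPase gene. The 10-kb windows over Sfi1 held 34.3% to 93.5% once-only words, and 81.1 distinct positions were counted for every 100 reads, library by library. The second was chr12:3100001-3200000, with 555 and 439 RPM in Con, against 580.5 and 499 in Step1 and 489 and 460 in Step2. No protein-coding gene overlaps it, 95.5% of its ends were on the plus strand, there were 9.88 distinct positions for every 100 reads, and 54.4% of the reads had a mapping quality of 30 or more. The position shown above, chr12:3110002, held 183, 168, 211, 180, 134 and 97 reads in the order of Con, Step1 and Step2 replicates. Its closest other places, with 48 of 48 bases equal, lay on a scaffold outside the chromosomes, where reads were not counted. Places with 47 of 48 included chr2:98666567-98666614, chr9:3003548-3003595 and chr9:3004192-3004239, all outside the windows. At the matching end, the chromosome 2 place held 416 and 352 reads in Con, against 1 and 1 in Step1 and 0 and 0 in Step2. The chromosome 9 places held 0 reads there in every library. On chromosome 11 both Step2 libraries were above both Con libraries, and on chromosome 12 both were below both Step1 libraries, but neither window was called (adjusted p from 0.914 to 0.999 over the 3 comparisons). The other 3 of these 5 windows were among those called, described next.

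Between groups, few centromere-near windows changed. Of the 949 windows, 915 had at least 10 reads in at least 2 libraries and were tested, with 25381 windows in the fit (limma voom, Benjamini-Hochberg adjusted over all of them, called at an adjusted p under 0.05). For Step1 against Con, 1 centromere-near window was called, beside 0.0158% of all windows; 0 were higher and 1 lower, beside 0.00788% of all windows in each direction. For Step2 against Con, 3 were called, beside 0.0906% of all windows; 1 was higher and 2 lower, beside 0.0433% higher and 0.0473% lower. For Step2 against Step1, 1 was called, beside 0.0433%; 0 were higher and 1 lower, beside 0.0118% higher and 0.0315% lower. All these counts rest on 1 to 3 windows. At an unadjusted p under 0.05 the shares were 9.62% of members against 7.27% of all windows for Step1 against Con, 8.42% against 8.25% for Step2 against Con, and 4.59% against 4.29% for Step2 against Step1. Median log2 fold changes of the tested members for these comparisons were -0.01, 0.00 and 0.00, beside 0.01, 0.01 and 0.00 over all windows tested. The groups' libraries did not overlap in 36.9%, 36.5% and 35% of members, beside 36.7%, 37% and 34.1% of all windows. Libraries of this design were simulated with 200 changed windows and the same assumed extra spread in every window. For Step2 against Con, 17.5% of 1.5-fold, 78% of 2-fold and 100% of 4-fold changes were then called. Changes near 1.5-fold would thus mostly go uncalled. In the real data 23 of all windows were called for that comparison, and the spread can be wider than assumed. The simulated shares may therefore overstate what could be called here.

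The window over Malat1 fell in both comparisons with Con. Malat1 is a long nuclear noncoding RNA, among the most abundant transcripts of neurons. The window chr19:5800001-5900000 held 166 and 313 RPM in Con, against 81.6 and 121 in Step1 and 80.9 and 93.8 in Step2. The Con libraries were above the other 4, and Con replicate 2 was far above Con replicate 1. The log2 fold change was -1.18 ± 0.24 (SE; limma adjusted p = 0.0223) for Step1 and -1.38 ± 0.23 (adjusted p = 9.6e-05) for Step2. Of its 1719 reads, 1333 lay in the first 10 kb, a piled-up window that holds the 5′ part of Malat1 (chr19:5795690-5802672, minus strand). Outside these 10 kb, RPM were 36.3 and 33.9 in Con, against 32.4 and 40.7 in Step1 and 28.8 and 26.1 in Step2. With piled-up windows left out, the fold change was 0.04 for Step1 (limma adjusted p = 0.988) and -0.35 for Step2 (adjusted p = 0.738). Both calls were thus lost. In run 2 alone they were lost as well, at -0.86 (adjusted p = 0.690) and -1.10 (adjusted p = 0.128). The position chr19:5800249 shown above held 53 and 205 reads in Con, against 7 and 18 in Step1 and 2 and 7 in Step2. Over the gene body 97.8% of 1540 reads were on the strand opposite to Malat1, from 89.8% to 99.7% by library. Protein-coding genes of the windows with at least 60 reads had a median of 49.2% on the opposite strand, and the highest of the 431 reached 73.3%. Neat1, the neighbouring noncoding gene that builds paraspeckles, had 122 reads in all, of which 62.3% were on the opposite strand. Without Con replicate 2 the window's fold change was -0.71 (adjusted p = 0.442) for Step1 and -0.92 (adjusted p = 0.126) for Step2. The Step1 call was also lost without Step1 replicate 1 (-0.92, adjusted p = 0.9995) or either Step2 library (adjusted p = 0.221 and 0.279), and the Step2 call without Step2 replicate 1 (-1.27, adjusted p = 0.105).

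A window around Stip1 and Macrod1 fell in Step2. Stip1 encodes a co-chaperone that links the chaperones Hsp70 and Hsp90, Macrod1 an enzyme that removes ADP-ribose. The window of chromosome 19 that ends at 7100000 held 85.8 and 109 RPM in Con, against 66.6 and 71.6 in Step1 and 48.7 and 46.6 in Step2. The 3 groups did not overlap, with Con highest and Step2 lowest. The log2 fold change was -1.02 ± 0.22 for Step2 against Con (limma adjusted p = 0.0155), and -0.48 ± 0.22 for Step1 against Con (adjusted p = 0.639). Of the 856 reads, 385 lay from 7040001 to 7050000, just before the start of Stip1 (chr19:7020702-7039967, minus strand). This stretch had 89 and 134 reads in Con, against 59 and 54 in Step1 and 32 and 17 in Step2. The call was lost under 9 of 19 alternatives, among them the 2-group fit (adjusted p = 0.0603), run 1 (0.174), run 2 (0.353), and leaving out Con replicate 2 (0.107), Step1 replicate 1 (0.0617), Step2 replicate 1 (0.275) or Step2 replicate 2 (0.364), with fold changes from -1.20 to -0.84 over these. With 50-kb windows, which are not among the 19, no window at Stip1 was called. The position with the most reads held 2.45% of the 100-kb window, so the ends were spread over many positions. The other 90 kb held 45.4 and 48.1 RPM in Con, against 40.8 and 43.8 in Step1 and 26.7 and 34.6 in Step2.

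A window on chromosome 3 rose in Step2. The window chr3:5800001-5900000, with no protein-coding gene, held 49.0 and 39.8 RPM in Con, against 86.4 and 82.9 in Step1 and 93.9 and 109 in Step2. Both Con libraries were below the other 4. The log2 fold change was 1.20 ± 0.20 for Step2 against Con (limma adjusted p = 0.000118) and 0.93 ± 0.21 for Step1 against Con (adjusted p = 0.0512). With reads of mapping quality 30 or more, Step2 against Con gave 0.76 (adjusted p = 0.132), and with mapping quality 42 it gave 0.04 (adjusted p = 0.979), so both ended the call. It was also lost without Step2 replicate 2 (1.09, adjusted p = 0.232). The position chr3:5860660 on the minus strand held 0 and 0 reads in Con, against 81 and 79 in Step1 and 35 and 60 in Step2. A neighbour at 5860678 held reads in Step2 only, 25 and 32. The position 5860660 made up 30.2% of all reads of the window. Outside the fullest 10 kb, RPM were 43.1 and 30.2 in Con, against 43.4 and 32.4 in Step1 and 42.5 and 33.2 in Step2, so there the groups overlapped.

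A window on chromosome 6 had its highest values in Step1. The window chr6:3200001-3300000 held 40.4 and 49.9 RPM in Con, against 85.5 and 81.4 in Step1 and 32.9 and 42.3 in Step2. It fell in Step2 against Step1 by 1.15 ± 0.23 on the log2 scale (limma adjusted p = 0.00634), while Step1 against Con gave 0.89 ± 0.21 (adjusted p = 0.0675). Reads of mapping quality 42 alone gave -2.46 (adjusted p = 2.8e-06) for Step2 against Step1 and a called 3.13 (adjusted p = 9.4e-10) for Step1 against Con. The call for Step2 against Step1 was lost in run 1 (-0.81, adjusted p = 0.9998) and without any of the 4 Step1 and Step2 libraries, where the fold change ran from -1.33 to -0.97 and adjusted p from 0.161 to 0.842. The position chr6:3201542 held 0 and 0 reads in Con, against 131 and 101 in Step1 and 3 and 6 in Step2. The position 37 bases away, chr6:3201505, held 28 and 53 in Con, against 8 and 9 in Step1 and 3 and 3 in Step2. The pair of positions shown above, both alike in sequence to a stretch of ribosomal RNA, thus ordered the groups differently. Outside the fullest 10 kb, which held 468 of the 659 reads, RPM were 15.9 and 11.4 in Con, against 19.7 and 14.4 in Step1 and 17.8 and 22.6 in Step2. Reads in the ribosomal stretch of chromosome 17, outside the windows, also differed between groups. The noncoding gene model Gm42418, which overlaps the places of like sequence, held 202 and 360 RPM in Con, against 130 and 187 in Step1 and 459 and 694 in Step2. Its neighbour Gm26917 held 502 and 804 RPM in Con, against 1503 and 1462 in Step1 and 457 and 573 in Step2. The neighbour was thus highest in Step1 and the overlapping gene highest in Step2. Their part in the chromosome 6 result was not tested.

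**Figure D4:**
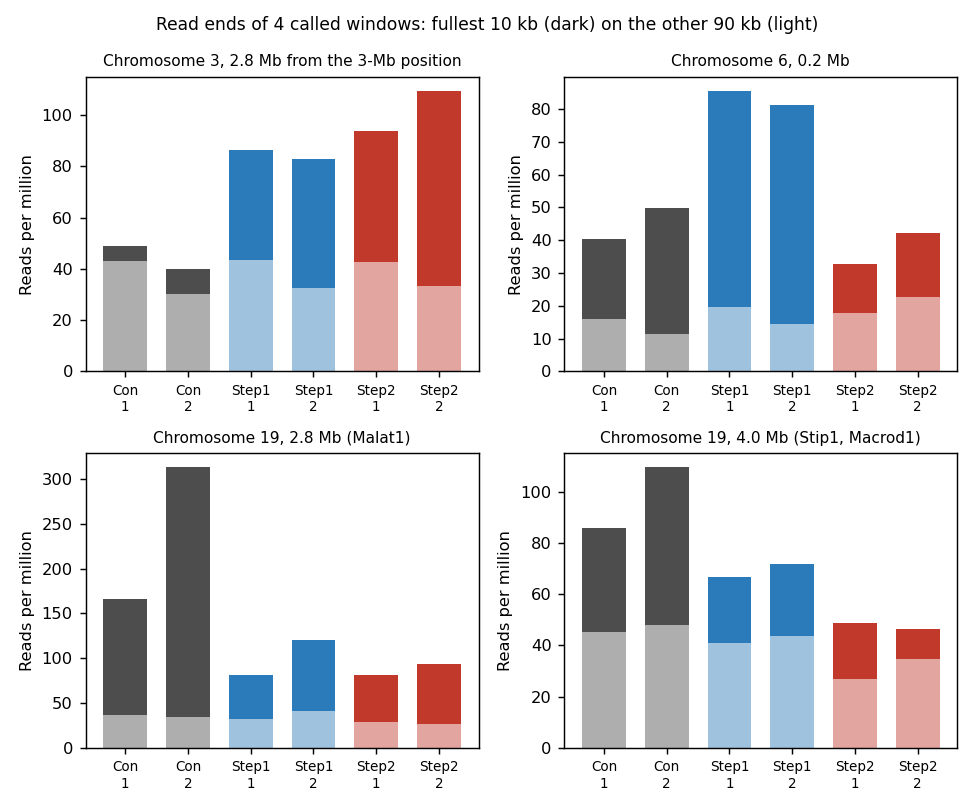
RPM in the 4 called windows by library, with the fullest 10 kb of each window in dark colour stacked on its other 90 kb in light colour. On chromosomes 3 and 6 and over Malat1 the groups differ mainly in the dark part. In both chromosome 19 windows the light part is lowest in Step2. It stands there at 28.8 and 26.1 over Malat1, and at 26.7 and 34.6 for Stip1 and Macrod1.

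All 4 windows lost their calls when each position was counted with 1 read. The log2 fold change for Step2 against Con was then -0.11 on chromosome 3 (adjusted p = 0.931), -0.55 over Malat1 (adjusted p = 0.231) and -0.60 at Stip1 (adjusted p = 0.181), and for Step2 against Step1 it was 0.23 on chromosome 6 (adjusted p = 0.977). Per the series' design text, PCR duplicates had been removed by molecular identifier before alignment. Whether reads that share a position carry different identifiers was not checked. Windows with the smallest p in a direction without a call were chr17:3800001-3900000 for Step1 against Con (0.73 ± 0.21, adjusted p = 0.373), and for Step2 against Step1 chr16:5300001-5400000 (0.94 ± 0.22, adjusted p = 0.051), chr7:6600001-6700000 (0.70 ± 0.21, adjusted p = 0.999) and chr4:3900001-4000000 (0.70 ± 0.22, adjusted p = 0.999). The chromosome 16 window was called under 6 of 19 alternatives (adjusted p from 0.0103 to 0.0482) and held 39.9 and 46.7 RPM in Con, against 30.3 and 28.3 in Step1 and 52.8 and 60.7 in Step2.

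Summed over the first 5 Mb of each chromosome, 0 of 19 blocks were called in any comparison, beside 0.19%, 0.952% and 0.571% of the 525 blocks tested. By direction, the share of all blocks was 0.19% higher and 0% lower for Step1 against Con, 0.952% and 0% for Step2 against Con, and 0.19% and 0.381% for Step2 against Step1. At an unadjusted p under 0.05 there were 4 of 19 for Step1 against Con, 4 for Step2 against Con and 2 for Step2 against Step1, beside 12.8%, 13.1% and 8.19% of all blocks. Groups did not overlap in 8, 12 and 7 of the 19, beside 45%, 43.8% and 38.7% of all blocks. Log2 fold changes ran from -0.23 to 0.06 for Step1 and from -0.28 to 0.08 for Step2. The lowest were on chromosome 14, at -0.23 and -0.28 (limma adjusted p = 0.166 and 0.132), and on chromosome 19, at -0.23 and -0.21 (adjusted p = 0.166 and 0.159). Block counts keep piled-up windows, so the chromosome 19 values include the piled-up 10 kb of Malat1. It held 285 and 609 reads in Con, against 112 and 155 in Step1 and 76 and 96 in Step2. Counting 1 read per position, the blocks of chromosomes 14 and 19 were called lower in Step1 and in Step2, 2 of 19 blocks each time. Of all blocks, 1.14% were then called for Step1 and 4.95% for Step2, and 0.952% and 2.86% were called lower. Chromosome 14 then fell by 0.22 ± 0.06 (adjusted p = 0.0396) and by 0.25 ± 0.07 (adjusted p = 0.0202), with 307 and 296 positions (scaled as RPM) in Con, against 253 and 268 in Step1 and 255.9 and 249.8 in Step2. Chromosome 19 fell by 0.13 ± 0.03 (adjusted p = 0.00147) and by 0.10 ± 0.03 (adjusted p = 0.0452), with 1917 and 2047 in Con, against 1764 and 1865 in Step1 and 1816 and 1896 in Step2.

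The windows hold the midpoints of 897 protein-coding genes, of which 497 had enough reads to be tested. Of these, 1 was called lower for Step1 against Con and 0 in the other comparisons, beside 0.123%, 0.0941% and 0.0434% of 13811 genes. By direction, 0.0217% of all genes were called higher and 0.101% lower for Step1 against Con, 0.0145% and 0.0796% for Step2 against Con, and 0.00724% and 0.0362% for Step2 against Step1. At an unadjusted p under 0.05 there were 46, 48 and 19 of the 497, or 9.26%, 9.66% and 3.82%, beside 7.08%, 7.77% and 3.42% of all genes. Groups did not overlap in 36.8%, 40% and 34% of the 497, beside 36.7%, 36.9% and 34% of all genes. The called gene was Rbfox1, a neuronal splicing regulator and 1 of the longest genes here (chr16:5885355-7411526). Its RPM per kb was 0.447 and 0.509 in Con, against 0.416 and 0.398 in Step1 and 0.404 and 0.455 in Step2. Step1 lay below Con without overlap, at a log2 fold change of -0.22 ± 0.05 (limma adjusted p = 0.0176), while Step2 gave -0.15 ± 0.05 (adjusted p = 0.452). The call was lost under 12 of 19 alternatives, among them without each of 5 libraries, and the fold change stayed between -0.32 and -0.13 with any library left out.

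Most of the gene bodies with the most reads had similar densities. A choice by read count can leave out long genes of low density, and roles were not compared. The 15 gene bodies with the most reads were Sfi1, Rbfox1, Celf2, Cdk14, Zfp804b, Frmd4a, Syne1, Drg1, Xkr4, Fam110b, Rp1, Camk1d, Gria4, St18 and Esr1. Apart from Sfi1 with 12.8 ± 0.674 (SD, n = 6) RPM per kb and Drg1, which overlaps its piled-up stretch, with 2.65 ± 0.108, they lay between 0.381 for Esr1, the oestrogen receptor, and 0.438 for Rbfox1. The median was 0.366 over the 897 genes and 0.379 over all protein-coding genes. Celf2, an RNA-binding splicing factor, had 0.432 ± 0.0374. Syne1, which links the nucleus to the cytoskeleton, had 0.413 ± 0.0449. Gria4, an AMPA receptor subunit, had 0.409 ± 0.0313. Frmd4a, a scaffold of cell polarity, had 0.461 and 0.435 in Con, against 0.353 and 0.366 in Step1 and 0.366 and 0.373 in Step2. Its Con libraries were above the other 4, and the fold change was -0.32 ± 0.08 for Step1 (adjusted p = 0.084) and -0.28 ± 0.09 for Step2 (adjusted p = 0.369).

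Of a list of 24 neural, chromatin and signalling genes, 20 are protein-coding genes of the windows, and Malat1 and Neat1 lie there as noncoding genes. Of the 20, 19 were tested, 1 was called for Step1 against Con (Rbfox1) and 0 in the other comparisons, beside 0.123%, 0.0941% and 0.0434% of all genes. Their median log2 fold change was -0.18, -0.12 and 0.02, beside -0.04, -0.04 and 0.00 over all genes tested, and 13 of 19 were lower in Step1 and 12 of 19 in Step2, beside 54.7% and 54% of all genes. Receptor genes on the list included Oprm1, the mu opioid receptor, with 0.359 and 0.291 in Con, against 0.381 and 0.414 in Step1 and 0.380 and 0.419 in Step2 (log2 fold change 0.29 ± 0.13 and 0.30 ± 0.14, adjusted p = 0.661 and 0.617). Other receptor genes of the list went either way: Oprk1 gave -0.38 and -0.19, Calcr -0.28 and 0.15, Gria4 0.03 and -0.12, Esr1 0.24 and 0.05, and Ghr -0.05 and 0.19. Dtnb gave -0.40 ± 0.15 and -0.48 ± 0.17 (limma adjusted p = 0.556 and 0.457). Among chromatin genes, Dnmt3a, which methylates DNA, gave -0.07 and 0.00 for Step1 and Step2 against Con. Among signalling genes, Insr, the insulin receptor, gave -0.14 and -0.12. None of these genes was called.

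In directions without a call, the genes with the smallest p were the following. For Step1 against Con they were Adcy3, an adenylyl cyclase of neuronal cilia (0.87 ± 0.23, adjusted p = 0.145), Ankrd36 (0.45, adjusted p = 0.586) and Slx4, a scaffold of DNA repair nucleases (1.32, adjusted p = 0.593). For Step2 against Con, higher values were found for Sfi1 (0.14 ± 0.04, adjusted p = 0.255), U2af2, a splicing factor (1.28, adjusted p = 0.385), and Mmp12, a macrophage protease (1.40, adjusted p = 0.402). Lower values were found for Ccdc106 (-1.51 ± 0.39, adjusted p = 0.149), Syne1 (-0.31 ± 0.09, adjusted p = 0.324) and Zeb1, a transcriptional repressor (-0.58 ± 0.18, adjusted p = 0.367). For Step2 against Step1, Plag1, a zinc finger transcription factor, had the smallest p of the higher ones (1.64 ± 0.40, adjusted p = 0.297); it held 0.187 and 0.151 RPM per kb in Step1 and 0.531 and 0.547 in Step2, with Con between at 0.327 and 0.416. U2af2 (1.13) and Sfi1 (0.12) were higher, and Adcy3 (-0.66), Zeb1 (-0.46) and Mtmr3 (-0.49) lower, each with an adjusted p of 0.999.

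Copied gene families other than the Zfp genes had few genes with enough assigned ends to be tested. Of 10 olfactory receptor genes, 14 Vmn1r and 9 Vmn2r pheromone receptor genes and 24 genes with a Zfp symbol, the tested numbers were 1, 1, 0 and 13, with 0 called in any comparison. Median density was 0.351, 0.249, 0.0673 and 0.410 RPM per kb. Among 153 genes known by a model number or clone name, 30 had no read, the median density was 0.0432, and 28 were tested with 0 called.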

How the data were processed

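BLISS break ends were analysed in 6 libraries. Per the series' design text, the authors removed PCR duplicates by molecular identifier, mapped the remaining reads to mm10 with Bowtie2 and converted the alignments with SAMtools and bedtools, whose versions are not stated in the labels. The deposited files list aligned reads, 1 a line, with a score that runs from 11 to 42 and is taken as mapping quality. From the deposited positions, 5′ ends were counted in 100-kb windows, 5-Mb blocks tiled from 3 Mb and protein-coding gene bodies (GENCODE vM21 annotation).

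Where at least 10 reads were seen in 2 or more libraries, a feature entered a voom fit in limma 3.58.1 (R 4.3.3) with a mean for each of the 3 groups; tests were two-sided and p-values were adjusted (Benjamini-Hochberg) across the whole table of windows, blocks or genes. Single values were compared by exact permutation. Once-only words were counted on both strands from a hash sample of 1 in 32 of all 48-base words; this measure and values without chromosome 14 were added after seeing the data. Alternatives were median-of-ratios scaling, other count filters, limma-trend, a replicate block, 2-group fits, removal of a GC smooth, 1 read per position, mapping quality of at least 30 or of 42, each of the 2 sequencing runs, piled-up windows left out or kept, 50-kb windows and each library left out. The fit was tested on simulated counts.

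Windows named are, for each comparison and direction, up to 5 called ones by fold change whose groups do not overlap, else the 3 of smallest p; also the 5 densest and 5 sparsest. Genes named follow the same rule with 10 and 3, plus the 15 with most reads and a list of 24. Windows, lists and rules were chosen with earlier results of these data known, and the positions printed and the first windows of chromosomes 4 and 18 were singled out after their values were seen. Sequences were read from RefSeq's mm10 assembly. Python 3.11.15, numpy 2.4.6, pandas 2.3.3, SciPy 1.17.1, numba 0.67.0 and matplotlib 3.10.9 were used.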

Additional observations from a re-analysis of the deposited data

Results flagged for a closer look

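Signal was present in 2 stretches outside the comparisons above. The left-out window of chromosome 9, which ends at 3100000, held 48478 reads over the 6 libraries, 0.421% and 0.389% of all reads in Con, against 0.431% and 0.405% in Step1 and 0.392% and 0.358% in Step2, 94.9 to 115 times the density of other autosomal windows. Both Step2 libraries were below both Step1 libraries, and Con overlapped both groups; the difference was not tested. A count of 0 would allow at most 0.000125% to 0.000203% of a library. The first 5 Mb of chromosome X from 3 Mb, which the rule for the windows leaves out, held 13100 reads. There, density relative to the rest of the chromosome was 0.687 to 0.734 per sequenced base and 0.956 to 1.02 per once-only word.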

How the results depend on the processing

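Centromere-near density per sequenced base stayed below that of other autosomal windows under every alternative run except per once-only word, where the mean log2 ratio was 0.0366 against -0.10; without chromosome 14 it was -0.03. The first-to-fifth-Mb ratio turned to 0.18 with piled-up windows kept and was -0.0107 per once-only word (exact p = 0.44). Leaving out each library gave -0.106 to -0.0996 and -0.106 to -0.0889 for these, at an exact p of 0.0625, the smallest that 5 libraries can give. Differences of the first-to-fifth ratio turned to 0.0304 (Step1 against Con, run 1), 0.00498 (Step1 against Con, piled-up windows kept), -0.0136 (Step2 against Con, mapping quality 42) and -0.0220 (Step2 against Step1, run 1), and the share difference of Step2 against Step1 to -0.00444 in run 1. With a library left out, these ratio differences lay within -0.0566 to 0.0306 (Step1 against Con), -0.0232 to 0.0641 (Step2 against Con) and 0.0223 to 0.0446 (Step2 against Step1), and the share differences within -0.0718 to -0.0279, -0.0596 to -0.0156 and -0.000351 to 0.0249.

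Called windows for Step1 against Con (1) became 2 with at least 20 reads, 3 with limma-trend, 2 with 50-kb windows, and 0 with the 2-group fit, 1 read per position, mapping quality 30 or run 2. With mapping quality 42 the count stayed at 1, but the window was that of chromosome 6 and not that of Malat1. With piled-up windows left out it also stayed at 1, but the window was that of chromosome 3. For Step2 against Con (3) they became 0 with 1 read per position, 1 with mapping quality 42 and 1 in run 2. With 50-kb windows 4 were called, on chromosomes 3, 8 and 14 and over Malat1, and none at Stip1. For Step2 against Step1 (1) they became 2 with median of ratios, limma-trend or the 2-group fit, and 0 with 1 read per position or run 1. With 1 read per position the log2 fold change turned to -0.11 on chromosome 3 and to -0.0702 (Step1 against Con) and 0.23 (Step2 against Step1) on chromosome 6, and with piled-up windows left out the Malat1 window turned to 0.0420 for Step1. Called blocks (0) became 2 for both comparisons with Con with 1 read per position, and 1 for Step1 with mapping quality 42 or run 2. Called genes for Step1 against Con (1) became 0 with median of ratios, no filter, at least 20 reads, limma-trend, the 2-group fit, run 1 or run 2, and 2 with 1 read per position, mapping quality 42 or piled-up windows left out. For Step2 against Con (0) they became 1 with median of ratios, mapping quality 42, run 2 or piled-up windows left out and 2 with limma-trend, and for Step2 against Step1 (0) 1 with limma-trend. The cause was not tested.

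With a library left out, called windows numbered 0 to 10, 1 to 7 and 0 to 2, blocks 0 to 3, 0 to 2 and 0 throughout, and genes 0 to 11, 0 to 7 and 0 throughout. Without Con replicate 1, 10 and 7 windows, 3 and 2 blocks and 11 and 7 genes were called against Con, while 176 and 153 of all 25364 windows, 36 and 42 of all 525 blocks and 148 and 106 of all 13273 genes were. Deviations of same-numbered libraries correlated at r of 0.0114, 0.00644 and 0.00881 over 24966 windows, so the numbers were not taken to pair them. With the replicate block, 3, 4 and 2 windows, 0, 0 and 0 blocks and 2, 1 and 0 genes were called. Of the named windows and genes, 429 alternative values kept direction and side of the threshold. With direction kept, 43 lost a call and 26 gained one, and 4 turned. The turned values of the Malat1 window, of chromosome 3 and of chromosome 6 for Step2 against Step1 lost their calls as well. With 2 libraries a group, changes near 1.5-fold in a window are mostly beyond reach.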
